A study of Arabidopsis thaliana with 2 samples.

Results

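Salicylic acid is the hormone that drives much of the immune response of Arabidopsis leaves to pathogens that feed on living tissue. Once made, it is kept in check by enzymes that modify it. A pair of oxygenases hydroxylate its ring, glucosyltransferases attach glucose so that it can be stored in the vacuole, and a methyltransferase turns it into the volatile methyl salicylate, which esterases can turn back into the free acid. The 6 genes described here cover these steps: DLO1 (AT4G10500) and DMR6 (AT5G24530) for hydroxylation, UGT74F1 (AT2G43840) and UGT74F2 (AT2G43820) for glucosylation, BSMT1 (AT3G11480) for methylation and MES9 (AT4G37150) for demethylation. They were chosen by identifier, with earlier results of these data known. Among the 23147 genes listed in either library are 5 of the 6, all but BSMT1.

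RNA was sequenced from rosettes of untreated 28-day-old plants of the Col-0 accession. One library came from a pbl19 null mutant that carries PBL19C3A-GFP-HA, a tagged PBL19 kinase with the C3A change (cysteine to alanine), under the PBL19 promoter (the C3A library). The other came from wild type plants. Neither the number of plants pooled nor the number of transgenic lines was given in the sources used here, and a line with the unchanged transgene was not analysed here, so the null allele, the amino acid change, the tags and the transgene's level cannot be told apart.

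With 1 library per genotype there is no replicate check and no test between genotypes. The difference of each gene is given as log2(FPKM + 1) in the C3A library minus that in the wild type library, called the log2 ratio. FPKM is the estimated count scaled for the length of the gene and the depth of the library, as deposited. Every count of genes at least 2-fold higher or lower, or past 2-fold, uses this scale, and means a log2 ratio of at least 1 or at most -1. The added 1 FPKM understates the difference of low genes. Where 1 gene has a fold, that value is instead its plain FPKM ratio, with an exact 95% interval from the rounded estimated counts, and can be above 2 for a gene that is not counted. These intervals cover counting error only, and not differences between plants.

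PBL19 itself was at 466 FPKM in the C3A library and 6.68 FPKM in the wild type library, and the tables do not separate transgene from native reads. The listed counts summed to 12001808 in the C3A library and 11937705 in the wild type library. All 5 rosette leaf markers were present at high levels, from 1281 to 8375 FPKM in the C3A library and from 1827 to 12729 FPKM in the wild type library, with log2 ratios between -0.90 and -0.51. Root markers were also detected, and the 8 with at least 1 FPKM in either library were all lower in the C3A library. Of these, 5 were at least 2-fold lower on the FPKM + 1 scale, beside 2.85% of all genes that passed the same filter. That count was 7 with the libraries rescaled or a pseudocount of 0.1, and 2 with a pseudocount of 5. The median log2 ratio of the 8 was -1.17. WOX5, below the filter, was higher, at 0.88 FPKM (11 counts) in the C3A library and 0.32 FPKM (4 counts) in the wild type. The 9 together summed to 46.1 FPKM in the C3A library against 110 FPKM in the wild type. Flower markers were near 0, at a sum of 0.69 FPKM in the C3A library and 0.45 FPKM in the wild type, with AP1 and AP3 listed in neither. In whole rosettes, fewer cells of a type and less RNA per cell cannot be told apart, and the part of root material in the differences below was not tested.

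Of the 6 genes, 5 were listed in both libraries and passed the filter of 1 FPKM in either library, and BSMT1 was listed in neither. On the FPKM + 1 scale 3 genes, DLO1, DMR6 and UGT74F2, were at least 2-fold higher in the C3A library, and none was at least 2-fold lower. As a plain FPKM ratio MES9 was also past 2, at 2.80. Over all 19527 genes that passed the filter, 7.89% were at least 2-fold higher and 2.85% at least 2-fold lower. The median log2 ratio was 1.24 over the 5 genes and 0.14 over all genes tested. The 6 genes were chosen with earlier results of these data known, so this contrast is a description and no test. Of all genes past 2-fold, 73.5% were higher with the deposited FPKM. That share was 60.8% once the libraries were scaled so that the median gene had equal levels, which took 0.14 off the median log2 ratio. DLO1, DMR6 and UGT74F2 stayed past 2-fold with that scaling.

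**Figure D1:**
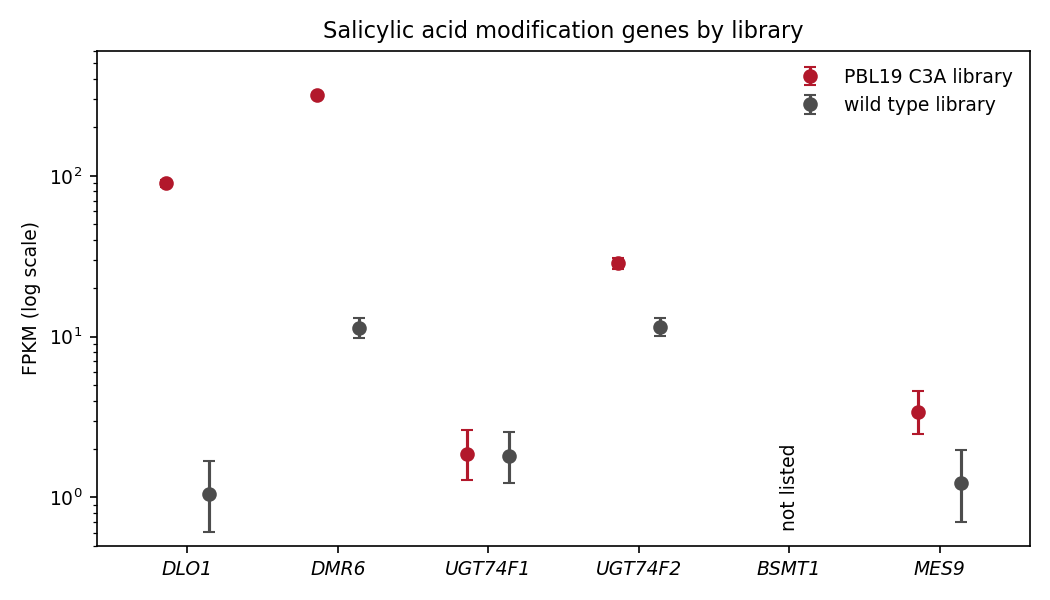
FPKM of the 6 salicylic acid modification genes on a log scale, in the C3A library (red) and the wild type library (grey). Bars are exact 95% Poisson intervals of the counts and cover counting error only; DMR6 and DLO1 stand at 318 and 89.8 FPKM in the C3A library against 11.4 and 1.05 FPKM in the wild type, and the bars of UGT74F1 overlap.

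DLO1, which hydroxylates salicylic acid on the ring carbon next to its own hydroxyl group, was at 89.8 FPKM (1463 counts) in the C3A library and at 1.05 FPKM (17 counts) in the wild type library. It was 85.5-fold higher (53.2 to 147), with a log2 ratio of 5.47, and ranked 26 among the 19527 ratios. Its level in the C3A library was above that of 94.5% of listed genes, and its level in the wild type library above that of 17.2%. DLO1 has 3 exons, lies on the plus strand of chromosome 4 at 6491017 to 6492578 (TAIR10.1), and encodes 349 amino acids.

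DMR6, named for the downy mildew resistance of its mutant, hydroxylates salicylic acid on the carbon opposite its hydroxyl group and gives gentisic acid. DMR6 was at 318 FPKM (5652 counts) in the C3A library, against 11.4 FPKM (201 counts) in the wild type. It was 28.0-fold higher (24.3 to 32.4), with a log2 ratio of 4.69, and ranked 54. It was the most abundant of the 6 genes in the C3A library, above 98.8% of listed genes, and stood above 61.9% of them in the wild type. DMR6 has 4 exons over 4643 bases on the plus strand of chromosome 5 at 8378759 to 8383401. The translated coding sequences of DLO1 and DMR6 were identical at 52.4% of 338 aligned positions, and their transcripts shared no stretch of 31 bases.

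The balance between the hydroxylases differed between the libraries. DMR6 stood at 3.54 times the FPKM of DLO1 in the C3A library (counting interval 3.34 to 3.75) and at 10.8 times in the wild type library (6.60 to 19.0). Put as a share of their sum, DLO1 made up 22.02% (21.04% to 23.03%) in the C3A library and 8.45% (5.01% to 13.2%) in the wild type. The intervals do not overlap, and the wild type share rests on the 17 counts of DLO1. The closest relative of DLO1 by translated sequence, DLO2 (AT4G10490), shares 75.4% of 346 aligned positions and lies 5656 bases away on the same strand. It was listed in neither library.

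**Figure D2:**
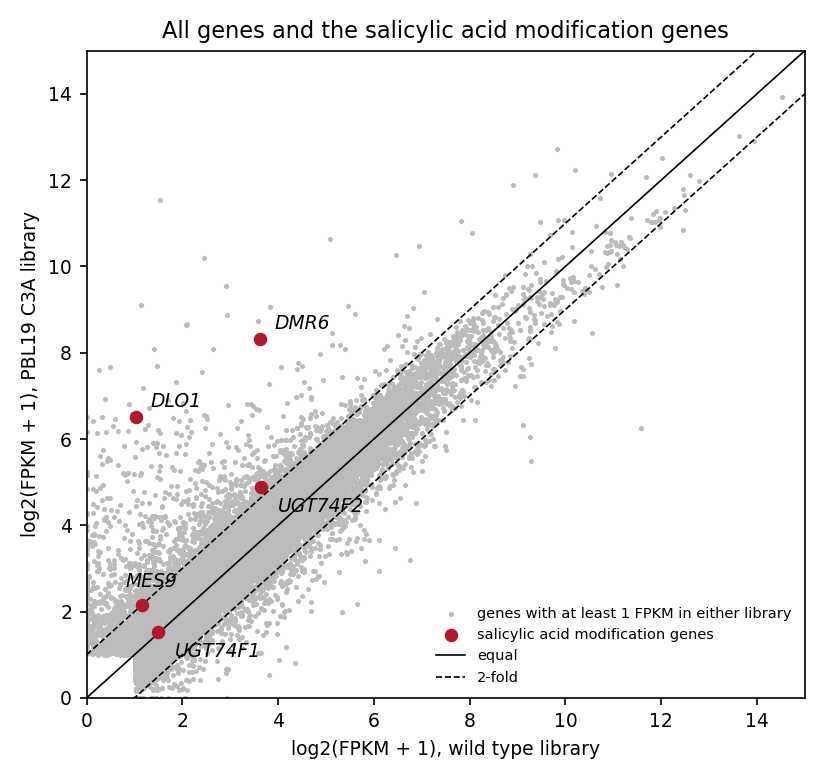
Level of every gene with at least 1 FPKM in either library, as log2(FPKM + 1) in the C3A library (vertical) against the wild type library (horizontal), with the 5 detected salicylic acid modification genes in red. The solid line marks equal levels and the dashed lines 2-fold; DLO1 and DMR6 lie above the upper dashed line, at log2 ratios of 5.47 and 4.69, UGT74F2 just above it and MES9 on it.

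Because DLO1 and DMR6 were the members furthest from equal levels, the sequence around their annotated gene starts is shown, 250 bases before to 50 after, from the TAIR10.1 genome of RefSeq, 5′ to 3′ on the plus strand. Capitals mark matches on either strand to any of 3 short motifs: the W-box of WRKY factors (TTGACC or TTGACT), the TGACG core bound by TGA factors, and GAAATTT, bound by CBP60g and SARD1. The first lies at chr4:6490767-6491066 and the other at chr5:8378509-8378808.

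DLO1: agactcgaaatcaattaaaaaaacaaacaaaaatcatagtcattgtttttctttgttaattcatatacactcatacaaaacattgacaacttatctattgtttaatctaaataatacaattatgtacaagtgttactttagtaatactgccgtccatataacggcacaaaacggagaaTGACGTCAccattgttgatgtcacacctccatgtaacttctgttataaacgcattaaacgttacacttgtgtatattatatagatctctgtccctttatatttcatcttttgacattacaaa

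DMR6: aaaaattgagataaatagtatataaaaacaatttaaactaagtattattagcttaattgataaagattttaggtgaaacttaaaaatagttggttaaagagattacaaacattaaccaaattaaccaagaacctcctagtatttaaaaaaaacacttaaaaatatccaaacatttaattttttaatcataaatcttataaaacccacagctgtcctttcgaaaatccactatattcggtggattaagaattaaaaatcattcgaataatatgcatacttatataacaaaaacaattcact

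The DLO1 window held TGACG on both strands, starting 72 and 69 bases before the gene start and overlapping in 1 palindrome. The DMR6 window held none of the 3 motifs. TGACG was found in 23.1% of the start windows of 27443 protein-coding genes, the W-box in 32.4% and GAAATTT in 14.2%. No W-box in these letters was found for DLO1, DMR6, UGT74F1, UGT74F2 or MES9. BSMT1 had 1 W-box, 135 bases before its start, and MES9 had 1 GAAATTT, 168 bases before its start. A match is a description of the letters and not evidence of binding.

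UGT74F2 forms both the glucoside of salicylic acid, its main stored form, and the glucose ester, and UGT74F1 forms mainly the glucoside. UGT74F2 was at 28.5 FPKM (600.01 counts) in the C3A library and at 11.5 FPKM (241 counts) in the wild type library. It was 2.48-fold higher (2.13 to 2.89), with a log2 ratio of 1.24, and ranked 1035. UGT74F1 was at 1.86 FPKM (32.99 counts) in the C3A library and at 1.80 FPKM (32 counts) in the wild type library. The ratio of 1.03 had a counting interval of 0.62 to 1.74, so no difference was detectable at this depth, and a difference within that interval would not have been seen. Its log2 ratio was 0.03, and -0.07 with the median gene set to equal levels.

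UGT74F1 made up 6.13% of the pair's summed FPKM in the C3A library (4.26% to 8.48%) and 13.5% in the wild type (9.47% to 18.5%). These intervals do not overlap either. In both libraries UGT74F2 was the more abundant gene of the pair, at 15.3 times UGT74F1 in the C3A library (10.8 to 22.5) and 6.39 times in the wild type (4.41 to 9.56).

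The UGT74F genes are neighbours on the plus strand of chromosome 2, UGT74F2 at 18152078 to 18153908 and UGT74F1 at 18157529 to 18159231, with 3620 bases between them. Each has 2 exons and encodes 449 amino acids. Their coding sequences of 1350 bases are identical at 84.1% of positions, and their transcripts share 23 overlapping 31-base words, most of them within 1 run. The longest shared run, of 48 bases, lies in the signature region of plant glucosyltransferases that binds the sugar donor. It is printed with its flanks, bases 934 to 1053 of each coding sequence (plus strand, TAIR10.1), to show how alike the genes are at their closest, with capitals at the 6 bases that differ.

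UGT74F1: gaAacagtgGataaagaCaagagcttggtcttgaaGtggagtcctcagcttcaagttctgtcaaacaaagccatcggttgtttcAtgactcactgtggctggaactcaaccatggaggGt

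UGT74F2: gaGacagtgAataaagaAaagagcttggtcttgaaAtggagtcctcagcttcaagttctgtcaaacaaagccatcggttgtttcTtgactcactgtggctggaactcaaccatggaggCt

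The fractional parts of the deposited counts in the C3A library, 32.99 and 600.01, sum to a whole number, and both wild type counts are whole. UGT74F1 also overlaps AT2G43850 on the opposite strand by 50 bases and the unlisted long noncoding RNA AT2G09505 by 356 bases, and UGT74F2 overlaps the unlisted pseudogene AT2G43830 by 62 bases. The sources used here do not say whether counting used strand, so the UGT74F1 level in particular is uncertain.

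MES9, an esterase that releases salicylic acid from methyl salicylate, was at 3.41 FPKM (45 counts) in the C3A library and at 1.22 FPKM (16 counts) in the wild type library. It was 2.80-fold higher as a plain ratio (1.55 to 5.30), with a log2 ratio of 0.99 on the FPKM + 1 scale, just under the threshold. Its side of the threshold depends on the pseudocount: at a pseudocount of 0.1 its log2 ratio was 1.41, and at 5 it was 0.44. The gene, with 3 exons, spans 17492871 to 17494279 of chromosome 4 (minus strand).

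BSMT1, which methylates salicylic acid and benzoic acid and is known as a gene of flowers and of leaves under attack, had no row in either table and was taken as 0 in both. No ratio can be given for it. Its gene on the plus strand of chromosome 3, at 3614421 to 3617342, has 5 exons and overlaps AT3G11490 by 79 bases on the opposite strand. AT3G11490 was at 5.72 FPKM in the C3A library and 8.45 FPKM in the wild type library.

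By step, the hydroxylases summed to 408 FPKM in the C3A library and 12.4 FPKM in the wild type, a ratio of 32.8. The glucosyltransferases summed to 30.4 FPKM in the C3A library and 13.3 FPKM in the wild type, a ratio of 2.28. Methylation and demethylation were represented by MES9 alone. Of the summed FPKM of the 6 genes, hydroxylation held 92.4% in the C3A library and 46.1% in the wild type, and glucosylation held 6.88% in the C3A library and 49.4% in the wild type. In the wild type library the counting intervals of UGT74F2 (10.1 to 13.1) and DMR6 (9.85 to 13.1) overlapped. Those of UGT74F1 (1.23 to 2.54), MES9 (0.70 to 1.98) and DLO1 (0.61 to 1.68) also overlapped. In the C3A library the order was DMR6, DLO1, UGT74F2, MES9 and UGT74F1. Within it only the intervals of MES9 (2.49 to 4.56) and UGT74F1 (1.28 to 2.61) overlapped. Overlap of separate intervals does not show that levels are equal, and the genes were not compared directly here.

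Genes that make and export salicylic acid, listed together with their regulators SARD1 and CBP60G, were split. Of 11, 5 were at least 2-fold higher and 1 at least 2-fold lower in the C3A library (7.89% and 2.85% of all genes tested). The median log2 ratio of the 11 was -0.09. The higher ones were the transcriptional regulators SARD1 and CBP60G, the synthase ICS1, the exporter EDS5 and PBS3, which joins glutamate to isochorismate. SARD1 had the largest ratio of them, at 85.9 FPKM in the C3A library and 3.49 FPKM in the wild type, and EDS5 the smallest, at 29.6 and 4.91 FPKM in the C3A and wild type libraries. ICS2, the second isochorismate synthase, was lower, at 3.64 FPKM in the C3A library and 24.8 FPKM in the wild type. EPS1, which completes the pathway, was at 2.09 FPKM in the C3A library and 2.35 FPKM in the wild type. The 4 phenylalanine ammonia-lyases, which start the other route to salicylic acid, had log2 ratios between -0.98 and -0.09.

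Other enzymes that conjugate salicylic acid or its derivatives differed less than the hydroxylases. Of 7, 3 were at least 2-fold higher (7.89% of all genes tested) and none at least 2-fold lower (2.85% of all). Their median log2 ratio was 0.36. GH3.5, which joins amino acids to auxin and salicylic acid, was 4.95-fold higher (4.06 to 6.08), at 20.9 FPKM in the C3A library and 4.22 FPKM in the wild type. SOT12, a sulfotransferase that accepts salicylic acid, was at 22.2 FPKM in the C3A library and 10.3 FPKM in the wild type, and UGT76B1, which glucosylates salicylic acid and N-hydroxypipecolic acid, was at 17.9 FPKM in the C3A library and 8.28 FPKM in the wild type. Both were just past 2-fold, and with the median gene set to equal levels only GH3.5 of the 7 was past it. UGT75B1, whose estimated counts are not whole, was at 24.6 FPKM in the C3A library and 42.0 FPKM in the wild type.

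The relatives of each enzyme family did not show the ratios of DLO1 and DMR6. None of the 5 other UGT74 genes was past 2-fold on the FPKM + 1 scale, and their median log2 ratio was 0.15. On that scale 7.89% of all genes tested were at least 2-fold higher and 2.85% at least 2-fold lower. By plain ratio UGT74E1 was 2.11-fold higher (0.96 to 4.98) and UGT74E2 2.01-fold lower. UGT74E2 was at 3.33 FPKM in the C3A library and 6.69 FPKM in the wild type, and UGT74B1, an enzyme of glucosinolate synthesis, was at 45.9 FPKM in the C3A library and 36.5 FPKM in the wild type. The oxygenases compared were DLO2 and 10 that act on other hormones. Of these 11, 6 passed the filter, 1 was at least 2-fold higher (7.89% of all genes tested) and the median log2 ratio was 0.44. That gene was GA2OX2, which inactivates gibberellins, at 5.95 FPKM in the C3A library and 1.31 FPKM in the wild type. By plain ratio GA2OX8 was also over 2-fold higher, at 2.33 (0.84 to 6.98), from 12 counts in the C3A library and 7 counts in the wild type. DAO2, related to an auxin oxidase, was at 7.80 FPKM in the C3A library and 14.2 FPKM in the wild type.

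Of the 22 other methyltransferases of the SABATH family, to which BSMT1 belongs, 12 passed the filter. On the FPKM + 1 scale 2 of them were at least 2-fold higher in the C3A library and 1 at least 2-fold lower. Over all genes tested, 7.89% were higher and 2.85% lower by that measure. The median log2 ratio of the 12 was 0.23. By plain ratio PXMT1 (2.15) and AT5G38780 (3.35) were also over 2-fold higher, and AT3G21950 (2.33) and AT1G68040 (2.18) over 2-fold lower. AT1G15125 was 9.09-fold higher (7.80 to 10.6), at 102 FPKM in the C3A library and 11.2 FPKM in the wild type. FAMT, which methylates farnesoic acid, was at 8.89 FPKM in the C3A library and 3.17 FPKM in the wild type. AT5G37990 was lower, at 46.3 FPKM in the C3A library and 111 FPKM in the wild type. The closest relative of BSMT1 by translated sequence, AT5G66430 (71.5% of 347 aligned positions), was listed in neither library. NAMT1, at 69.6%, was at 0.71 FPKM in the C3A library and 1.09 FPKM in the wild type.

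Among the 19 other methylesterases of the MES family, 14 passed the filter. Past 2-fold on the FPKM + 1 scale were MES16, which was higher, and MES18, which was lower. Over all genes tested, 7.89% were at least 2-fold higher and 2.85% at least 2-fold lower. The median over the 14 was -0.10. MES15 was 2.81-fold lower (1.53 to 5.46) by plain ratio only, at 0.75 FPKM in the C3A library and 2.11 FPKM in the wild type. MES16, which acts on chlorophyll breakdown products, was at 6.69 FPKM in the C3A library and 2.30 FPKM in the wild type. MES18 had 4.78 FPKM in the C3A library and 23.6 FPKM in the wild type, 4.94-fold lower (3.70 to 6.69). MES1, MES2 and MES7, which can also hydrolyse methyl salicylate, had log2 ratios of -0.11, 0.13 and -0.05. MES2 was the most abundant of these, at 45.1 FPKM in the C3A library and 41.1 FPKM in the wild type, well above MES9 in both libraries. MES4, with the same activity, was listed in neither.

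**Figure D3:**
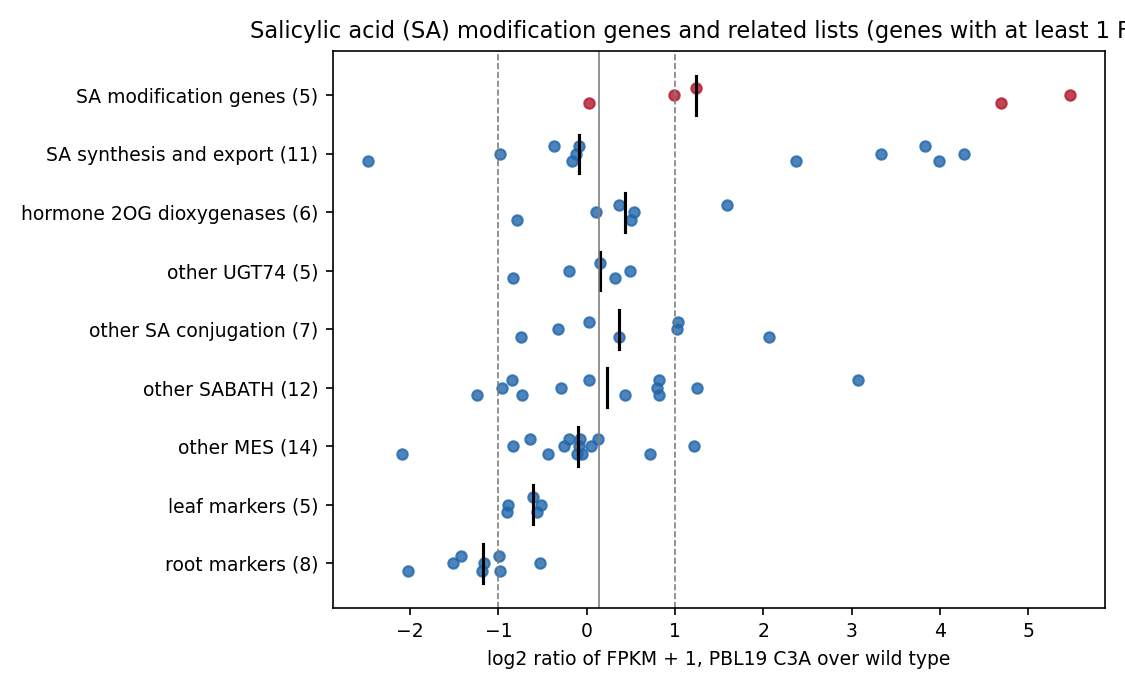
Log2 ratio, C3A library over wild type library, of each gene with at least 1 FPKM in either library, by gene list; the number of genes is in brackets, short black bars are medians, the solid grey line is the median of all genes tested (0.14) and dashed lines mark 2-fold. DLO1 and DMR6 lie furthest to the right, and the 8 root markers plotted all lie below 0. In the synthesis and export list, which includes the regulators SARD1 and CBP60G, 5 of the 11 genes lie beyond 2-fold on the right.

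Each count of neighbours below stands beside 7.89% of all genes tested at least 2-fold higher and 2.85% at least 2-fold lower. Within 20 kb of DLO1, none of the 3 other genes tested was past 2-fold on the FPKM + 1 scale, and their log2 ratios ran from -0.42 to 0.42. AT4G10510, the next gene downstream, was at 0.53 FPKM in the C3A library and 1.04 FPKM in the wild type. Near DMR6, 1 of 4 was at least 2-fold higher, beside 7.89% of all genes tested. That gene was BGLU31, a beta-glucosidase gene whose annotated end lies 1279 bases beyond that of DMR6 on the opposite strand. BGLU31 was at 5.47 FPKM (119 counts) in the C3A library and was not listed in the wild type. TTG1, on the other side, was 1.86-fold higher (1.64 to 2.10). Around UGT74F2 none of 11 was past 2-fold on the FPKM + 1 scale. By plain ratio AT2G43870, at 0.59 FPKM in the C3A library and 1.67 FPKM in the wild type, and AT2G43880, at 0.64 FPKM in the C3A library and 1.98 FPKM in the wild type, were over 2-fold lower. The genes that flank the glucosyltransferase pair, LSM6B and AT2G43850, were under 2-fold higher. LSM6B had a ratio of 1.69 from 382 counts in the C3A library and 225 counts in the wild type, and AT2G43850 a ratio of 1.70 from 345 counts in the C3A library and 196 counts in the wild type. Around MES9, 1 of 12 was at least 2-fold higher and 1 at least 2-fold lower, beside 7.89% and 2.85% of all genes tested. Its direct neighbours were MES20, at 0.43 FPKM (3 counts) in the C3A library and not listed in the wild type, and sks15, at 1.27 FPKM in the C3A library and 2.87 FPKM in the wild type. None of the 12 genes tested around BSMT1 was past 2-fold on that scale.

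**Figure D4:**
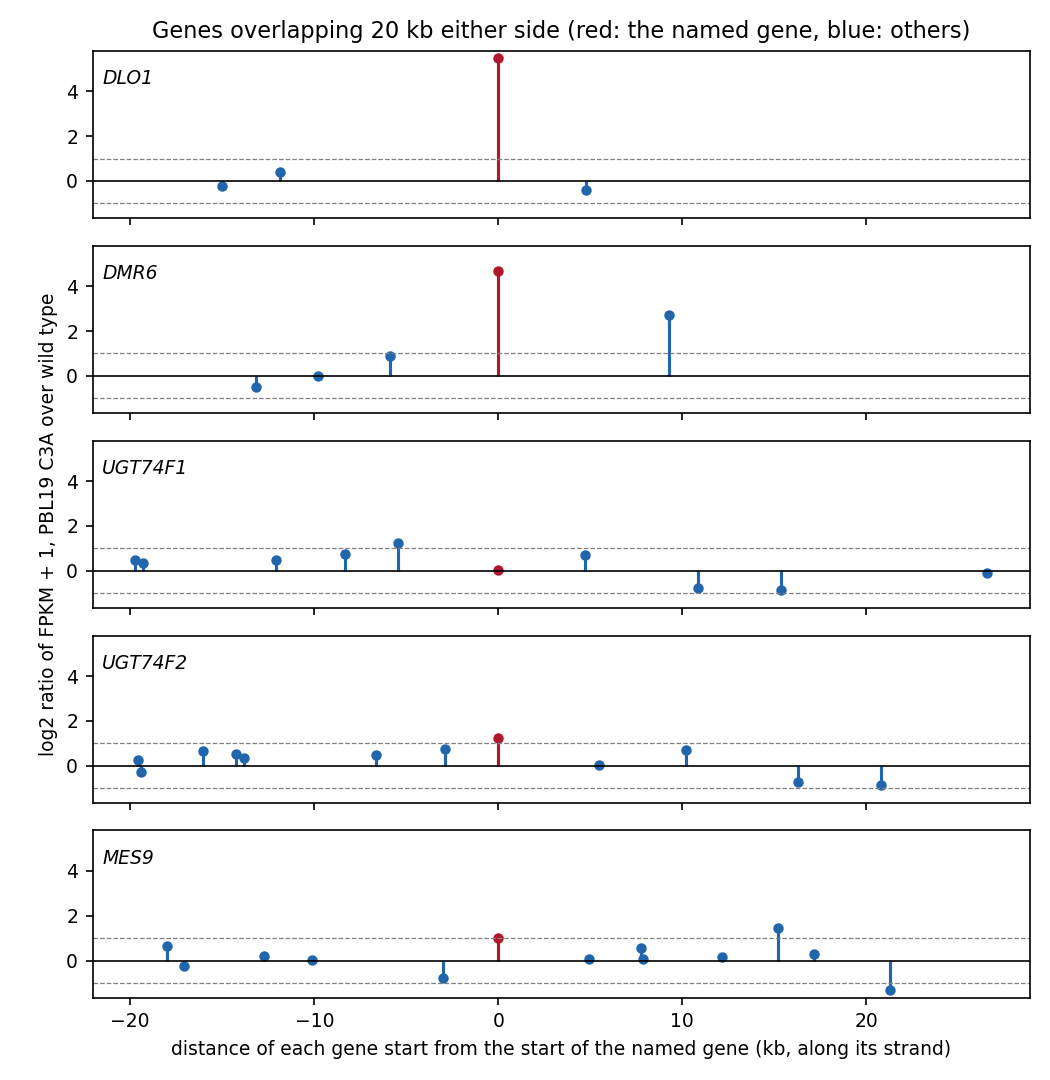
Log2 ratio, C3A library over wild type library, of the tested genes that overlap the 20 kb on either side of DLO1, DMR6, UGT74F1, UGT74F2 and MES9, against the distance of each gene's start from the start of the named gene along its strand. The named gene is red, the others blue, and dashed lines mark 2-fold; around DMR6 the only other gene past 2-fold is BGLU31, which was unlisted in the wild type, so its height depends on the pseudocount.

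The gene most like each member was the one at the smallest distance in log2(FPKM + 1) over the 2 libraries, a measure that matches only a level and a ratio. For DLO1 it was AT5G52760, annotated as a copper transport protein family member, at 95.1 FPKM in the C3A library and 0.92 FPKM in the wild type (distance 0.13). For DMR6 it was AT5G55450, annotated in the lipid-transfer protein superfamily, at 423 FPKM in the C3A library and 10.9 FPKM in the wild type (distance 0.41). DMR6 had 1 gene within a distance of 0.5 and DLO1 had 8. UGT74F2 had 377 such genes, MES9 504 and UGT74F1 1406, so their nearest genes, AT1G17990, ATMG01210 and AT1G02820, are not set apart from many others by this measure.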

How the data were processed

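Rosette RNA was read as pairs of 150 bp on a BGI sequencer, per the labels' protocols. Trimmomatic 0.36, HISAT and TAIR10 are named in the submitters' processing notes; no counting tool or strand setting is given in the sources used here. The authors deposited, per library, an expected count (an estimate that need not be whole), a length and an FPKM for each gene above 0. The deposited FPKM values divide by the length less 36.5 bases, as a line fitted over genes with 1 transcript gave, and by a total of which 2.65% in the C3A library and 2.63% in the wild type is not in the listed rows. Unlisted genes were set to 0. Counts were rounded for intervals.

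Genes with at least 1 FPKM in either library were compared as log2(FPKM + 1), and differences of 2-fold on that scale were counted. Intervals are exact Clopper-Pearson or Poisson. Alternatives changed the scaling (including edgeR 4.0.16 TMM factors), pseudocount, length and filter. The log2 ratio and the interval of the fold were run on simulated Poisson counts, which hold no differences between plants. The other steps were not tested in this way. Names and coordinates come from RefSeq TAIR10.1, where 22970 of 23147 identifiers were found, and all 49 single-transcript genes checked had the deposited length (tolerance 0.01 bases). Identities are from translated coding sequences aligned with biopython 1.88. The genes named were the members, up to 4 of each list by size of ratio, nearest relatives, direct neighbours and the most like gene, and some others picked after their values were seen: ICS2, EDS5, EPS1, NAMT1, the ammonia-lyases, PXMT1, AT5G38780, AT1G68040, AT2G43870, AT2G43880, MES1, MES2, MES4 and MES7. The members and lists were chosen with earlier results of these data known.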

Additional observations from a re-analysis of the deposited data

How the results depend on the processing

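Under 8 alternatives, 3 or 4 of the 6 genes were at least 2-fold higher in the C3A library and none at least 2-fold lower. Over all genes, these alternatives gave 3.76% to 10.6% at least 2-fold higher and 1.25% to 4.67% lower. The fourth member was MES9, with a pseudocount of 0.1 (log2 ratio 1.41) and as counts scaled to the library total with no length (1.02). UGT74F2 stayed between 1.02 and 1.30 and UGT74F1 between -0.07 and 0.04, below 0 in the 3 rescalings. DLO1 moved to 6.29 with a pseudocount of 0.1, and with a pseudocount of 5 DLO1 was at 3.97 and DMR6 at 4.30, which follows from the size of the pseudocount beside low wild type levels. Over all genes tested, 4.67% (911) were at least 2-fold lower with a pseudocount of 0.1. With a pseudocount of 5, 3.76% (735) were at least 2-fold higher and 1.25% (244) lower. By counts with no length, DLO1 made up 20.6% of the hydroxylase pair in the C3A library. Among the related lists, the 3 rescalings and a pseudocount of 5 left 1 of 7 other conjugating enzymes at least 2-fold higher. Over the 8 alternatives, SABATH genes at least 2-fold higher numbered 1 to 4 and lower 1 to 3, MES genes 0 to 1 higher and 1 to 2 lower, oxygenases 0 to 2 higher, synthesis and export genes 5 higher and 1 to 2 lower, and root markers 2 to 7 lower. Leaf markers at least 2-fold lower numbered 2 of 5 in the 3 rescalings, which took the median log2 ratio of all genes between 0.00 and 0.03. The wild type levels of DLO1 and MES9 rest on 17 and 16 counts. No paired analysis was possible because there is 1 library per genotype.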

Other observations

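Of the 1536 genes at least 2-fold higher in the C3A library with an annotated start window, 45.6% held a W-box in the letters TTGACC or TTGACT on either strand, against 32.7% of the 19408 tested genes. The 3 members past 2-fold, DLO1, DMR6 and UGT74F2, held none within the same window. Shares for TGACG were 26.04% of the higher genes and 23.7% of tested genes, and for GAAATTT 16.5% and 14.5%. These are counts of letters in a window of 300 bases, with no test.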
